A study of Mus musculus with 24 samples.

Results

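The genes described here encode the hydrolases, cathepsins, lipid-handling proteins, membrane proteins and proton pump of the lysosome. A list of 42 mouse genes was matched by symbol to the probes of the array, and each gene was represented by its brightest detected probe. A probe was found under the name of 38 of the 42 genes, and 36 of these were tested among 8622 genes in all. Ctsh, Atp6v0c, Atp6v0d2 and Atp6v1f had no probe under their name in the table used here, and the probes of Gla and Tfeb were not detected. The mouse macrophage line RAW264.7 was treated for 1, 2 or 4 h with 100 ng/mL LPS (a TLR4 ligand), with 1 μM P3C (a synthetic lipopeptide and TLR2 ligand) or with 1 μM R848 (an imidazoquinoline and TLR7 ligand), or was left untreated for the same times. Each of these 12 groups had 2 arrays, A and B, which the methods describe as duplicate biological samples of this single cell line, so that the data cover 24 arrays. All values are log2 signals after quantile normalization, and a gene is said to have been called, to have risen or to have fallen where its adjusted p in limma was under 0.05.

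Lysosomes break down proteins, glycans and lipids with enzymes that work at low pH. The vacuolar ATPase acidifies the lumen: its V1 sector hydrolyses ATP in the cytosol, and its V0 sector carries protons across the membrane. In macrophages the organelle degrades phagocytosed material and prepares peptides for presentation, and many of its genes are known targets of the transcription factor TFEB and its relatives, which bind CACGTG-containing elements.

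The median signal per array was 95.8 to 115 before normalization, and between 12299 and 13917 of 45281 probes were detected on each array (p under 0.01). Precision is limited by having 2 arrays per group. Of the macrophage markers listed, 7 of 8 had a probe and 5 were detected on all 24 arrays, including Cd68, Lyz2 and Csf1r. Of the T cell, B cell and fibroblast markers, 2 of 6, 1 of 4 and 2 of 5 had a probe, and none of these was detected on any array. Among neutrophil and epithelial markers, S100a8 was detected on 24 arrays at 6.95 to 7.48, Krt8 on 5 and Elane on 1. Tnf, the tumour necrosis factor transcript, rose by 4.41 with LPS, 4.57 with P3C and 4.61 with R848 at 4 h. The 24 arrays were spread over 10 slides. Treated and untreated arrays of 1 time point never shared a slide, so that these comparisons could not be repeated within a slide. A fit with the slide as a random block is therefore given beside the calls of the 36 lysosomal genes that it changed. When arrays were scaled to a common median over all probes in place of quantile normalization, the median difference of all genes between LPS and untreated cells at 4 h moved from -0.06 to -0.33. All directions below are relative to the other genes on the array.

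At 4 h most of the lysosomal genes were not called against untreated cells. With LPS, 6 of 36 fell (16.7%, background 16%) and 3 rose (8.33%, background 10.8%), so that 25% were called against a background of 26.8% of all genes, and the share of lysosomal genes called was near that of the array as a whole. The 6 that fell were Asah1, Gusb, Neu1, Psap, Atp6v1c1 and Smpd1, and the 3 that rose were Npc2, Atp6v1e1 and Ctsc. With P3C, Psap fell (background 5.43% lower) and Atp6v1h rose (background 5.4% higher), 5.56% of the 36 genes against 10.8% of all. With R848, Atp6v1h alone rose (background 6.3% higher) and none fell (background 6.38% lower), 2.78% against 12.7%. At an unadjusted p under 0.05 the counts were 14, 5 and 4 of 36. Every called gene has such a p, so that at least 26.8%, 10.8% and 12.7% of all genes passed it too. Unadjusted counts here and below are not set against the share of all genes and cannot show an excess of lysosomal genes. The median difference of the 36 genes was -0.16 with LPS, -0.08 with P3C and -0.04 with R848, beside -0.06, -0.02 and -0.03 for all genes. When 1 array of the groups compared was left out, the LPS counts ran from 2 to 5 lower and from 0 to 3 higher. Without Ctsc, which passed the detection filter only through treated groups, 6 of 35 fell and 2 rose. Under median scaling the LPS counts were 6 lower and 0 higher of the 36 lysosomal genes, of which Asah1, Gusb and Neu1 were shared with the 6 above and Atp6v0d1, Glb1 and Npc1 were added, while Psap, Atp6v1c1 and Smpd1 were no longer called (adjusted p = 0.116, 0.133 and 0.0771). These counts came with a median of -0.49 beside -0.33, and 1428 lower and 325 higher of all genes in place of 1377 and 934. RNA from fewer cells and less RNA per cell cannot be told apart in these bulk samples.

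**Figure D1:**
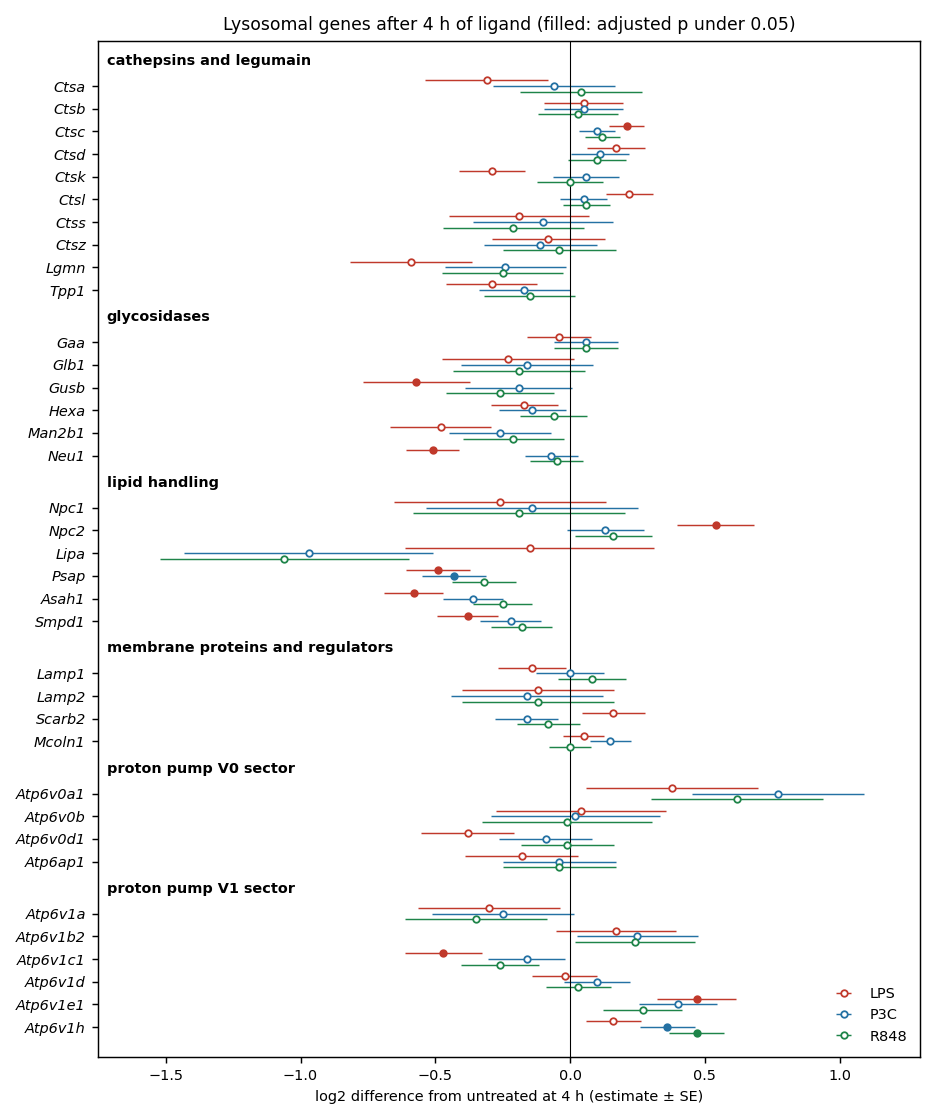
Log2 difference from untreated cells at 4 h (x axis) for the 36 tested lysosomal genes, grouped by role, with points for the estimate and bars for 1 SE, in LPS (red), P3C (blue) and R848 (green). Filled points had an adjusted p under 0.05: there are 9 for LPS, 2 for P3C and 1 for R848, and only 1 LPS estimate, that of Lgmn at -0.59, reached a 1.5-fold change.

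The estimates were small. With LPS at 4 h, 35 of the 36 estimates were below a 1.5-fold change (0.58 on the log2 scale), and with P3C and R848 34 were. The 95% interval lay wholly inside that range for 13 genes with LPS, 21 with P3C and 23 with R848, beside 60.3%, 70.3% and 69.1% of all genes. The standard errors of the 36 differences had a median of 0.147, beside 0.125 for all genes, and ran from 0.0653 for Ctsc to 0.462 for Lipa. In untreated cells no lysosomal gene was called between 1 and 4 h (background 0.0696%), and none had an unadjusted p under 0.05. Both LPS arrays at 4 h lay below all 6 untreated arrays for 11 of the 36 genes (30.6%, background 28.2%) and above them for 5 (13.9%, background 17%), again close to the array as a whole. With P3C 6 genes lay below and 4 above all untreated arrays (backgrounds 17.6% and 13.8%), and with R848 4 lay below and 3 above (backgrounds 18.9% and 14.4%).

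**Figure D2:**
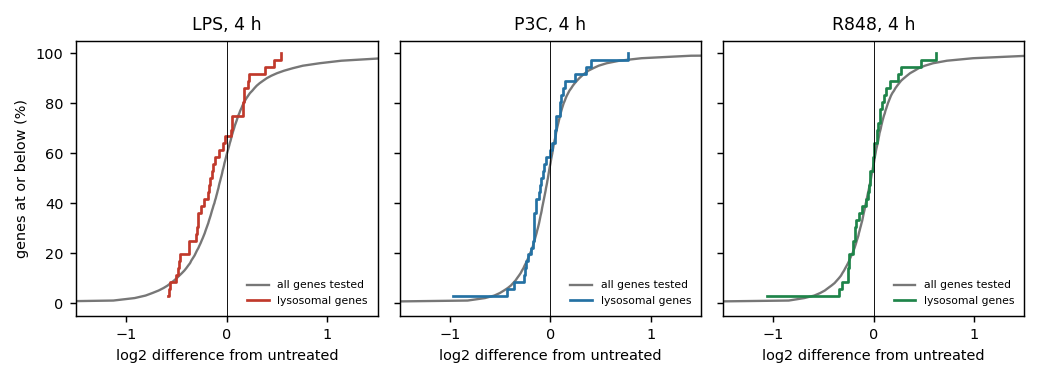
Cumulative share of genes (y axis, %) at or below each log2 difference from untreated cells at 4 h (x axis) for the 36 lysosomal genes (coloured steps) and all 8622 genes tested (grey line), with a panel for each ligand. The coloured and grey curves lie close together with P3C and R848, and with LPS the lysosomal genes have a median of -0.16 beside -0.06.

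At earlier times almost nothing was called. At 1 h no lysosomal gene passed the limma threshold with LPS (background 3.51%), P3C (3.02%) or R848 (3.41%), and 2 of 36 had an unadjusted p under 0.05 with each ligand. At 2 h Neu1 and Psap fell with LPS (5.56%, background 11.9%) and Neu1 fell with R848 (2.78%, background 6.58%). Under median scaling none was called at 2 h (backgrounds 2.71%, 0.615% and 1.09% with LPS, P3C and R848). Under neqc 1 was called with LPS (background 11.9%) and none with R848 (background 7.33%). With every probe tested on its own, a Gusb probe was also called lower with LPS (background 10.7%) and with R848 (background 6.15%). The slide block added Psap lower with LPS at 1 h (background 4.69%). At 2 h it added Ctsk lower with LPS (background 16.2%) and Atp6v0a1 higher with P3C (background 7.86%). None was called with P3C at 2 h (background 5.49%), where 4 had an unadjusted p under 0.05. The change of a response between 1 and 4 h was called for none of the 36 genes with LPS, P3C or R848 (background 10%, 2.92% and 3.54%), with unadjusted counts of 4, 1 and 2, so that a call at 4 h and none at 1 h does not show that a gene's response grew.

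Among the 6 glycosidases tested, which strip sugars from glycoproteins and glycolipids, Neu1 and Gusb fell with LPS at 4 h (background 16% lower). None was called with P3C (background 10.8%) or R848 (background 12.7%). All 6 estimates were below 0 with LPS, as were about 60% of all genes. The median of the 6 was -0.36 beside -0.06 for all genes. Neu1, the lysosomal sialidase that removes terminal sialic acids, read 9.93 and 9.98 on the LPS arrays and 10.42 and 10.51 on the untreated arrays at 4 h. Neither LPS array reached the lowest of the 6 untreated arrays of all times, which was 10.28. The fall of 0.51 (1.43-fold lower, SE 0.099, adjusted p = 0.00114) held in all 15 other settings tried, with values from -0.93 to -0.45. On the slides that LPS arrays at 4 h shared with untreated arrays of 2 h, Neu1 differed by -0.36 on one and by -0.42 on the other.

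Neu1 fell by 0.52 already after 2 h of LPS, from 10.28 and 10.40 on the untreated arrays to 9.75 and 9.89. With R848 at 2 h the arrays read 9.84 and 9.98, a fall of 0.43 (adjusted p = 0.0133), and at 4 h they read 10.45 and 10.38 and overlapped the untreated values. The P3C arrays read 9.96 and 10.22 at 2 h, below both untreated arrays of that time without passing the test, and 10.37 and 10.42 at 4 h. At 2 h the arrays of all 3 ligands thus lay below both untreated arrays, with a call for LPS and R848 and none between ligands. At 4 h only the LPS arrays lay apart from the untreated ones, and the higher P3C array equalled the lower untreated array at 10.42. At 1 h the R848 arrays read 10.16 and 10.27, below both untreated arrays (10.29 and 10.54), without a call. The 250 bases before the start site of Neu1 on the plus strand (chr17:34931003-34931252, GRCm38.p6, RefSeq) are shown because this gene had the clearest difference between ligands, and they contain no CACGTG.
Neu1: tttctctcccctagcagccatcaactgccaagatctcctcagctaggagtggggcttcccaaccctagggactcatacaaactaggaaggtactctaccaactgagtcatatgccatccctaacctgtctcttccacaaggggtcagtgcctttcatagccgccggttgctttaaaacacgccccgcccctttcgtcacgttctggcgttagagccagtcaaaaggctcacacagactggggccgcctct

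Gusb, the β-glucuronidase that degrades glucuronic acid-containing glycosaminoglycans, read 12.19 and 12.11 with LPS at 4 h against 12.63 and 12.82 in untreated cells, a fall of 0.57 (SE 0.199, adjusted p = 0.0445). The LPS arrays lay below all 6 untreated arrays, whose lowest value was 12.61. The call was lost when any 1 of the 4 arrays compared was left out (adjusted p 0.0832 to 0.226), under neqc, with a detection limit of p under 0.05 and without a detection filter. Of 2 other Gusb probes, the one at -0.38 was called when every probe was tested on its own (adjusted p = 0.00164) and the one at -0.33 was not (adjusted p = 0.363). Man2b1, lysosomal α-mannosidase, was chosen after its values were seen: its LPS arrays read 10.33 and 9.94 against 10.63 and 10.60, a difference of -0.48 that was not called (adjusted p = 0.0748) but was called with the slide as a random block (-0.55, adjusted p = 0.0224). Man2b1 was also called lower with a replicate block (background 29%) and with pooled untreated arrays (background 34.8%). A dimmer Man2b1 probe gave -0.01 (adjusted p = 0.986). The other 3 glycosidases, Hexa, Glb1 and Gaa, had LPS differences of -0.17, -0.23 and -0.04, none called.

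Of the 6 lipid-handling genes tested, 3 fell and 1 rose with LPS at 4 h (backgrounds 16% and 10.8%), and the median was -0.32 beside -0.06 for all genes. Asah1, acid ceramidase, which splits ceramide into sphingosine and fatty acid, read 10.91 and 11.04 with LPS at 4 h against 11.49 and 11.63 in untreated cells. Both LPS arrays, like those of P3C and R848, lay below all 6 untreated arrays, which ran from 11.45 to 11.68. The fall of 0.58 (SE 0.11, adjusted p = 9e-04) held in all 15 other settings, with values from -0.88 to -0.51, and on the slides shared with untreated arrays of 2 h the differences were -0.54 and -0.46. A dimmer Asah1 probe differed by only -0.11 (adjusted p = 0.825), so that the probes of this gene disagree in size. With P3C the arrays read 11.26 and 11.14, a difference of -0.36 just short of the threshold (adjusted p = 0.0504) that was called with the slide as a random block (-0.39, adjusted p = 0.0402). The R848 difference was -0.25 and was not called.

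Psap encodes prosaposin, the precursor of the saposins that present sphingolipids to their hydrolases. At 4 h it read 11.71 and 11.80 with LPS, 11.72 and 11.91 with P3C, 11.86 and 12 with R848, and 12.17 and 12.33 in untreated cells. All 6 treated arrays lay below both untreated arrays of that time. It fell by 0.49 with LPS (SE 0.119, adjusted p = 0.0057) and by 0.43 with P3C (adjusted p = 0.0276), while the R848 difference of -0.32 was not called (adjusted p = 0.0995). The LPS difference was also called at 2 h, where the arrays read 11.92 and 11.85 against 12.39 and 12.28, a fall of 0.45. The 4 h LPS call was lost without LPS array A or untreated array B (adjusted p 0.0521 and 0.0666), the P3C call without P3C array A or either untreated array (adjusted p 0.0577 to 0.217), under neqc and in a fit of only the arrays compared, and a second Psap probe gave -0.35 with LPS without a call.

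Smpd1, acid sphingomyelinase, which turns sphingomyelin into ceramide, read 7.98 and 7.77 with LPS at 4 h against 8.19 and 8.32. The groups did not overlap, and the fall of 0.38 (SE 0.114, adjusted p = 0.0215) was lost without LPS array B or untreated array B (adjusted p 0.185 and 0.154). Dimmer Smpd1 probes gave -0.08 and -0.20. Npc2, the soluble sterol-binding protein that hands cholesterol to the membrane protein Npc1, was the only lipid-handling gene that rose. Its LPS arrays read 9.29 and 9.70 at 4 h and those of untreated cells 8.95 and 8.97, so that the LPS arrays were high but far apart. The rise of 0.54 (SE 0.143, adjusted p = 0.0112) was lost without LPS array B (0.33, adjusted p = 0.165) and without either untreated array (adjusted p 0.0506 and 0.0625), and it shrank to 0.09 under median scaling. Npc1 itself differed by -0.26 (95% interval -1.10 to 0.58) and was not called.

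Lipa, lysosomal acid lipase, which hydrolyses cholesteryl esters and triglycerides, had the largest differences among the 36 genes at 4 h and was described after its values were seen. The P3C arrays read 10.03 and 9.64 and the R848 arrays 9.88 and 9.62, against 11.39 and 10.23 in untreated cells and 10.95 and 10.37 with LPS. The 4 P3C and R848 arrays lay below all 6 untreated arrays, but those were themselves spread over 1.16, with the A arrays at 11.14 to 11.39 and the B arrays at 10.23 to 10.36. The differences of -0.97 with P3C (95% interval -1.96 to 0.01, adjusted p = 0.228) and -1.06 with R848 (adjusted p = 0.169) were not called. A second Lipa probe gave -0.76 and -0.82, also without a call, and the LPS difference was -0.15 (95% interval -1.14 to 0.83).

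**Figure D3:**
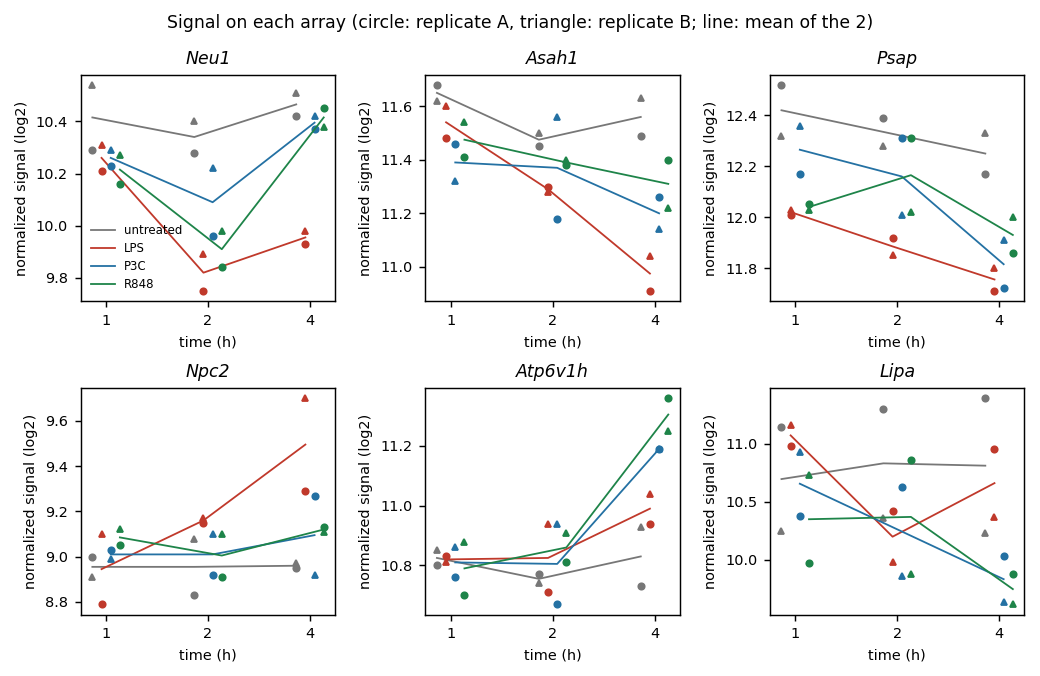
Normalized log2 signal (y axis) at 1, 2 and 4 h (x axis, equally spaced) for 6 lysosomal genes, with circles for the A arrays, triangles for the B arrays and lines through the mean of each pair, in untreated (grey), LPS (red), P3C (blue) and R848 (green) cells. Neu1 is below both untreated arrays of the same time with R848 at 1 h, with all 3 ligands at 2 h and with LPS alone at 4 h. At 4 h the higher P3C array equals the lower untreated array. Psap and Asah1 are lowest with LPS at 4 h, Npc2 is highest with LPS and Atp6v1h with R848 at 4 h, and the untreated Lipa arrays are spread over 1.16.

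The cathepsins are the proteases of the lysosome. Of 10 genes tested, including the asparaginyl endopeptidase legumain (Lgmn) and the tripeptidyl peptidase Tpp1, 1 rose with LPS at 4 h (Ctsc, background 10.8%), none fell (background 16%), and none was called with P3C (background 10.8%) or R848 (background 12.7%), where none had an unadjusted p under 0.05 either. Ctsb, a cysteine protease used throughout the endolysosomal system, read 13.58 and 13.52 with LPS, 13.64 and 13.46 with P3C, 13.70 and 13.36 with R848, and 13.46 and 13.55 in untreated cells. These values overlap, and the LPS difference of 0.05 had a 95% interval of -0.27 to 0.36. Ctsd, the aspartic protease cathepsin D, read 7.49 and 7.36 with LPS against 7.31 and 7.19, a difference of 0.17 (95% interval -0.05 to 0.40, adjusted p = 0.265). Its P3C and R848 differences were 0.11 and 0.10, and neither was called.

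Ctsc encodes dipeptidyl peptidase I, which activates granule proteases. Its probe was dim, detected on 16 of 24 arrays and on both arrays of no untreated group, so that it passed the detection filter only through treated groups, where a higher signal is what lets it pass. Of the untreated arrays at 4 h, 1 of 2 had detected it. It read 7.08 and 7.18 with LPS at 4 h against 6.87 and 6.97, a difference of 0.21 (adjusted p = 0.0272) that is given as a description and not as support for a rise. Its call was lost under median scaling and in a fit of only the arrays compared, and without LPS array B or untreated array A (adjusted p 0.196 and 0.207). The remaining cathepsins had LPS differences from -0.31 for Ctsa to 0.22 for Ctsl. Ctss, which trims the invariant chain of MHC class II in macrophages, differed by -0.19 with LPS (95% interval -0.75 to 0.36).

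Lgmn had the lowest LPS estimate of the 36 genes and is described after its values were seen. Its arrays read 11.86 and 11.29 with LPS at 4 h against 12.09 and 12.24, and the 6 untreated arrays ran from 11.82 to 12.43, so that LPS array A lay within the untreated range. The difference of -0.59 was not called (SE 0.225, adjusted p = 0.0639), but it was called with the slide as a random block (-0.72, SE 0.2, adjusted p = 0.0117). Lgmn was also called lower with a replicate block (background 29%) and with pooled untreated arrays (background 34.8%).

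No lysosomal membrane protein tested was called against untreated cells at 4 h (backgrounds 26.8%, 10.8% and 12.7% with LPS, P3C and R848). Lamp1, a main glycoprotein of the lysosomal membrane, read 12.25 and 12.08 with LPS, 12.32 and 12.30 with P3C, 12.44 and 12.33 with R848, and 12.30 and 12.32 in untreated cells at 4 h. Its differences were -0.14, 0.00 and 0.08, and the LPS interval ran from -0.41 to 0.12. Mcoln1, the calcium channel through which lysosomal calcium release activates TFEB, differed by 0.05 with LPS (95% interval -0.12 to 0.21), 0.15 with P3C and 0.00 with R848. Its arrays read 7.55 and 7.51 with LPS against 7.47 and 7.50, and under median scaling the LPS value was -0.24, still not called. Lamp2 and Scarb2, the receptor that carries β-glucocerebrosidase to lysosomes, had LPS differences of -0.12 and 0.16. None of the 4 genes tested had an unadjusted p under 0.05 with any ligand against untreated cells at 4 h. With the slide as a random block, Scarb2 was higher with LPS than with P3C (0.44, adjusted p = 0.00111) and R848 (0.35, adjusted p = 0.00598), and Lamp1 was lower with LPS than with R848 (-0.26, adjusted p = 0.0396).

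The few calls among the proton pump subunits went in both directions, as did those over all genes. Of 10 subunits tested, Atp6v1e1 rose (background 10.8%) and Atp6v1c1 fell (background 16%) with LPS at 4 h. Atp6v1h rose with P3C (background 5.4%) and with R848 (background 6.3%). The median over the 10 was 0.01, 0.06 and 0.01 for the 3 ligands, beside -0.06, -0.02 and -0.03 for all genes. Atp6v1h encodes the H subunit, which regulates the activity of the V1 sector. It read 11.36 and 11.25 with R848, 11.19 and 11.19 with P3C, 10.94 and 11.04 with LPS, and 10.73 and 10.93 in untreated cells at 4 h. The arrays of all 3 ligands lay above all 6 untreated arrays, which reached 10.93. The rise was 0.47 with R848 (1.39-fold, SE 0.102, adjusted p = 0.00535) and 0.36 with P3C (1.28-fold, adjusted p = 0.0336), and the LPS difference of 0.16 was not called (adjusted p = 0.295).

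The R848 call for Atp6v1h was lost without R848 array A or untreated array A (adjusted p 0.064 and 0.0923), and the P3C call without either P3C array or untreated array A (adjusted p 0.136 to 0.312), under neqc and in a fit of only the arrays compared. Both were also lost under median scaling with little change in size (0.40 and 0.35). Within the slide that held the B arrays of all ligands at 4 h and untreated array B of 2 h, Atp6v1h was higher by 0.44 with P3C, 0.51 with R848 and 0.29 with LPS.

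Atp6v1c1 and Atp6v1e1 encode the C and E subunits, which belong to the stalks that hold the V1 and V0 sectors together. Atp6v1c1 read 10.47 and 10.34 with LPS at 4 h against 10.91 and 10.84, a fall of 0.47 (SE 0.143, adjusted p = 0.0231). The groups did not overlap, but the call was lost without any 1 of the 4 arrays (adjusted p 0.0529 to 0.136), and a second probe gave -0.19 without a call. Atp6v1e1 read 11.87 and 12.05 against 11.42 and 11.56, a rise of 0.47 (SE 0.146, adjusted p = 0.0253). This call was lost without LPS array B or either untreated array (adjusted p 0.0557 to 0.168), and under median scaling the value was 0.21. With P3C, Atp6v1e1 read 11.97 and 11.81, above both untreated arrays of that time, and its difference of 0.40 was not called (adjusted p = 0.101).

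No V0 subunit was called against untreated cells with quantile normalization and no block, and 2 were called in other settings. The backgrounds at 4 h were 26.8%, 10.8% and 12.7% with LPS, P3C and R848. Atp6v0d1, the d subunit that joins V0 to the stalk, read 10.80 and 10.77 with LPS at 4 h, 11.04 and 11.11 with P3C, 11.17 and 11.12 with R848, and 11.04 and 11.28 in untreated cells. The LPS arrays lay below both untreated arrays, and the difference of -0.38 (95% interval -0.74 to -0.01) did not pass after adjustment (adjusted p = 0.128). That difference was called under median scaling (-0.68, adjusted p = 0.0353). Atp6v0d1 was also called lower with a replicate block (background 29%), and again where the LPS letters were crossed (background 27.9%). With the slide block Atp6v0d1 was lower with LPS than with R848 (-0.36, adjusted p = 0.0441). Atp6v0a1, an isoform of the membrane-spanning a subunit, was chosen after its values were seen. It read 8.78 and 9.34 with P3C and 8.71 and 9.10 with R848 against 8.31 and 8.27 in untreated cells at 4 h, while the untreated arrays of all times ran from 7.82 to 8.80. Its differences of 0.77 (adjusted p = 0.154) and 0.62 (adjusted p = 0.263) were not called, and both were called in the slide-block fit (0.93 and 0.78), where Atp6v0a1 was also lower with LPS than with P3C (-0.72, adjusted p = 0.0164).

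Neu1 was the only one of the 36 genes called between ligands at 4 h. It was lower with LPS than with P3C (difference -0.44, SE 0.099, adjusted p = 0.0129) and than with R848 (-0.46, adjusted p = 0.0102), which is 1 of 36 genes (2.78%) beside a background of 5.81% and 4.69%. Within the slide that held the B arrays of the 3 ligands, the LPS array read lower for Neu1, with differences of -0.44 from P3C and -0.40 from R848. The calls were lost without either LPS array (adjusted p 0.0526 to 0.0989), without either P3C array (0.062 and 0.111) or without R848 array A (0.101), and under neqc background correction, median scaling or a fit of only the arrays compared. Between R848 and P3C no gene of the array was called (background 0%; 0.0464% with the slide as a random block), and none of the 36 had an unadjusted p under 0.05. The 95% interval of the R848 minus P3C difference lay within a 1.5-fold change for 29 of the 36 genes, and for Neu1 it ran from -0.19 to 0.23. At 1 and 2 h no lysosomal gene was called between ligands (background 0.209%, 0.116% and 0.0348% at 1 h and 1.48%, 1.19% and 0.0232% at 2 h for LPS with P3C, LPS with R848 and R848 with P3C), with unadjusted counts of 0 at 1 h and of 2, 3 and 0 at 2 h.

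The comparison of LPS with the other ligands depended on how slides were treated. At 4 h the A arrays of P3C and R848 shared a slide that did not hold the LPS A array, while all the B arrays shared another. With the slide as a random block (estimated correlation 0.602), 10 of the 36 genes were called between LPS and P3C (background 18.7%) and 10 between LPS and R848 (background 18.2%), in place of 1 and 1. The comparison with P3C alone also called Atp6v0a1 (-0.72), Atp6v1c1 (-0.33) and Ctsk (-0.25) lower and Ctsl (0.21) higher with LPS. The comparison with R848 alone also called Atp6v0d1 (-0.36), Atp6v1h (-0.29) and Lamp1 (-0.26) lower and Atp6v1e1 (0.31) higher with LPS. Lower with LPS in both comparisons were Neu1 (-0.41 and -0.43), Lgmn (-0.61 and -0.59), Man2b1 (-0.40 and -0.45) and Smpd1 (-0.31 and -0.35). Higher in both were Npc2 (0.56 and 0.53) and Scarb2 (0.44 and 0.35). These comparisons share the LPS arrays. The same block added Lgmn and Man2b1 to the genes lower with LPS than in untreated cells, for 8 lower and 3 higher (background 30.6%), and added Asah1 and Atp6v0a1 to the P3C calls (2 lower and 2 higher, background 14.4%) and Atp6v0a1 to the R848 call (2 higher, background 16%).

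The E-box CACGTG stood in the promoter windows of 12 lysosomal genes. The letters CACGTG, which read the same on both strands, were searched in RefSeq windows of 300 bases, from 250 before to 50 after each start site (GRCm38.p6), and a gene was counted where any of its windows held them. These were 12 of the 34 lysosomal genes with a window (35.3%), beside 8.09% of 27025 genes. The longer CLEAR palindrome, which contains these letters, was found in none of the 34, beside 0.37% of genes. A match is a description of these letters and not of a bound site. The stretches below show those around every match of 5 genes and 1 match of Lgmn, with CACGTG in capitals, because they include the membrane protein with the most matches, the calcium channel, a cathepsin and both V0 subunits with a match.
Lamp1, chr8:13159088-13159163, plus strand: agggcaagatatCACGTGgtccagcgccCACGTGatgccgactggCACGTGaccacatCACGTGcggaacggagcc
Mcoln1, chr8:3500436-3500491, plus strand: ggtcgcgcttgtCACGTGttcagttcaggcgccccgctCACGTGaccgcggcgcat
Ctsa, chr2:164833749-164833795, plus strand: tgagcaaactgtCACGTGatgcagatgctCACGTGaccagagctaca
Atp6v0b, chr4:117887330-117887377, minus strand: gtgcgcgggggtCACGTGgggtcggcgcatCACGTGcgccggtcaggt
Atp6v0d1, chr8:105566050-105566079, minus strand: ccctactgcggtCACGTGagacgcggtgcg
Lgmn, chr12:102439124-102439153, minus strand: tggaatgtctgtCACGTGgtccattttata

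Lamp1 carried 4 matches, Mcoln1, Ctsa and Atp6v0b 2 each, and Atp6v0d1 and Lgmn 1 each. None of the 11 tested genes with CACGTG was called with any ligand at 1, 2 or 4 h, where the backgrounds at 4 h were 26.8% with LPS, 10.8% with P3C and 12.7% with R848, and 3 of them had an unadjusted p under 0.05 with LPS at 4 h. The differences of these 11 with LPS at 4 h ran from -0.59 to 0.22 with a median of -0.14. Of the 19 tested genes whose windows held no CACGTG, 4 fell and 3 rose with LPS at 4 h (backgrounds 16% and 10.8%), and their median was -0.17. The 3 include Ctsc, which passed the detection filter only through treated groups and is not support for a rise. The other 2 calls, Asah1 and Atp6v1c1, belonged to the 6 tested genes without a window in the table. The medians of the groups with and without the motif were thus close, and the difference between them was not tested. Among the 11, other settings called Lgmn, Atp6v0d1, Glb1 and Ctsl with LPS against untreated cells at 4 h. Lgmn was lower with the slide block, a replicate block and pooled untreated arrays (backgrounds 30.6%, 29% and 34.8%). Atp6v0d1 was lower under median scaling (background 20.3%) and with a replicate block. Glb1 was lower under median scaling, and Ctsl was higher with pooled untreated arrays.

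**Figure D4:**
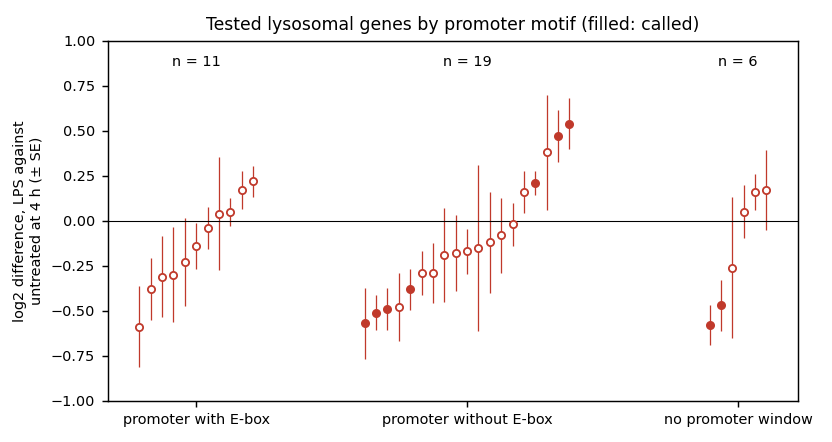
Log2 difference between LPS and untreated cells at 4 h (y axis, estimate with 1 SE) for the tested lysosomal genes whose promoter windows held the E-box CACGTG (n = 11), held none (n = 19) or were not in the table (n = 6), with genes ordered by value within each group. Filled points were called: 0, 7 and 2 in the 3 groups, with group medians of -0.14, -0.17 and -0.11. The 7 include Ctsc, which passed the detection filter only through treated groups.

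Other genes of the lysosome, from a separate list of 91 of which 64 were tested, were counted in the same fit. With LPS at 4 h 15 of the 64 fell and 6 rose (32.8%, background 26.8%), with P3C 6 fell and 3 rose (14.1%, background 10.8%), and with R848 4 fell and 4 rose (12.5%, background 12.7%). Pla2g15, a lysosomal phospholipase, fell by 1.24 after LPS (adjusted p = 3.53e-06), by 0.79 after P3C (adjusted p = 0.000806) and by 0.87 after R848 (adjusted p = 0.000275). Manba, β-mannosidase, fell by 0.85, 0.42 and 0.59, and Pld3, an exonuclease of the lysosome, rose by 0.90, 0.73 and 0.77, all 6 differences being called. Arsb, arylsulfatase B, fell by 0.67 with LPS and 0.49 with P3C, and its R848 difference was -0.42 (adjusted p = 0.0528). With LPS alone, Dnase2a, the acid DNase, fell by 0.93, and Cln3, a lysosomal membrane protein, and Tcirg1, another isoform of the a subunit of the proton pump, rose by 1.10 and 0.93; the differences of these 3 genes between LPS and the other ligands were not called.

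Slc11a1, the metal ion transporter of the phagosome membrane, rose by 1.16 with P3C (adjusted p = 0.00314) and 1.15 with R848 (adjusted p = 0.00313). Its LPS difference was 0.53 (adjusted p = 0.109), and LPS against P3C gave -0.63 (adjusted p = 0.161), so that a difference between the ligands was not shown. Of the pump subunits outside the main list, 1 fell and 2 rose of 8 tested with LPS (backgrounds 16% and 10.8%). None was called with P3C (background 10.8%) or R848 (background 12.7%). The cystatins, inhibitors of the cysteine cathepsins, had 1 of 3 tested lower with LPS and none called with P3C or R848, beside the same backgrounds.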

How the data were processed

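The authors deposited 2 kinds of values: raw signal intensities with detection p-values and bead numbers for 45281 Illumina probes per array, and log2 values after quantile normalization for 23937 of them. GenomeStudio 2011.1 is named in the submitters' notes. From the raw signals, log2 values were quantile-normalized over the 24 arrays, with no background correction. A probe was kept if its detection p was under 0.01 in both arrays of any group (14119 probes, 12540 with 1 gene name), and the brightest represented its gene. Symbols were updated by gene identifier (16512 probes) or accession (1422, including Lipa), and 2035 kept the name they had. Group means over all arrays were compared in limma, adjusting by Benjamini and Hochberg over the 8622 genes of each comparison. The methods describe no test for the arrays. p-values measure the spread between duplicate samples.

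The lysosomal genes and lists were chosen with earlier results of these data known. Named genes are all those called against untreated cells at 4 h, plus Atp6v0d1, Mcoln1 and Ctsd. Others are given where a group is described or are said to have been chosen afterwards. Of the other lysosomal list, the 8 with the largest called change at 4 h are named. Intervals are 95%. The fits were tested on simulated data. Software versions were limma 3.58.1 in R 4.3.3, and pandas 2.3.3 and matplotlib 3.10.9 in Python 3.11.15.

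The settings varied were the background correction (neqc), the scaling (median), use of the authors' log2 values, the detection limit (p under 0.05, or none), every probe on its own, untreated arrays pooled over time, a fit of only the arrays compared, a replicate block, a random slide block and the omission of each array.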

Additional observations from a re-analysis of the deposited data

Results flagged for a closer look

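Between ligands at 4 h, 1 of the 36 lysosomal genes and 2 of the 64 others tested were called with LPS against P3C, and 1 and 1 with LPS against R848, beside 5.81% and 4.69% of all genes. Neu1 was lower with LPS than with P3C (-0.44, adjusted p = 0.0129) and than with R848 (-0.46, adjusted p = 0.0102), with both LPS arrays below all 4 arrays of the other ligands. Ctns, the cystine transporter of the lysosomal membrane, was lower with LPS than with P3C (-0.47, adjusted p = 0.000588) and than with R848 (-0.42, adjusted p = 0.0018), and its differences from untreated cells were -0.58 with LPS, -0.12 with P3C and -0.16 with R848. Manba was lower with LPS than with P3C (-0.42, adjusted p = 0.00848), and its difference between LPS and R848 was -0.26 without a call (adjusted p = 0.146). Ctns was singled out after its values were seen.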

How the results depend on the processing

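Asah1 and Neu1 with LPS against untreated cells at 4 h kept direction and call in all 15 other settings. In median scaling, 0 lysosomal genes were higher with LPS, 0 were lower or higher with P3C, 0 were higher with R848 and 0 differed between LPS and P3C or R848. That setting called 20.3%, 2.86% and 3.42% of all genes with LPS, P3C and R848, and 1.61% and 1.14% for LPS against P3C and R848. neqc gave 0 lower and 0 higher with P3C and 0 differing between LPS and either ligand, as did a fit of only the arrays compared, with 2 higher with R848. Over all genes neqc called 11.2% with P3C, and 5.44% and 4.62% for LPS against P3C and R848. The fit of only the arrays compared called 12.2% with P3C, 13.5% with R848, and 3.67% and 2.78% for LPS against each. A detection p under 0.05 gave 2 lower with P3C (background 9.77% in either direction). Every probe on its own gave 2 differing between LPS and each other ligand, Neu1 and Gusb, both lower with LPS (backgrounds 5.5% and 4.65%). Pooled untreated arrays gave 3 lower with P3C and 1 lower with R848 (backgrounds 17.5% and 19.1% in either direction). The slide block gave 2 lower and 2 higher with P3C (background 14.4%) and 2 higher with R848 (background 16%). It gave 10 differing between LPS and each other ligand (backgrounds 18.7% and 18.2%). The cause of these shifts was not tested.

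Leaving out 1 array gave 2 to 5 lower and 0 to 3 higher with LPS, 0 to 1 lower and 0 to 1 higher with P3C, 0 to 1 higher with R848, 0 to 2 differing between LPS and P3C and 0 to 1 between LPS and R848. The arrays compared share only a replicate letter: deviations of treated and untreated arrays correlated at 0.256 to 0.354 at 1 h, 0.344 to 0.428 at 2 h and 0.0612 to 0.161 at 4 h. A replicate block left the counts at 1 and 2 h as they were and at 4 h gave 9 lower and 3 higher with LPS, 2 lower and 2 higher with P3C and 1 higher with R848. It called 29%, 12.9% and 14.8% of all genes with LPS, P3C and R848 at 4 h, in place of 26.8%, 10.8% and 12.7%. At 4 h the deviations of LPS ran against those of P3C (-0.297) and R848 (-0.362). A block with the LPS letters crossed, chosen after seeing the data, gave 7 lower and 3 higher with LPS, 1 differing from P3C and 1 from R848. The backgrounds of these 3 comparisons were 27.9%, 6.15% and 5.27%.

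Reversals were of uncalled values. In median scaling the LPS values of Atp6v1h, Mcoln1 and Ctsd became -0.17, -0.24 and -0.05. With pooled untreated arrays, Mcoln1 with LPS was -0.01, Ctsd -0.03 with P3C and -0.03 with R848, and Neu1 0.01 and Atp6v0d1 0.03 with R848. Atp6v0d1 with R848 was 0.06 in the slide block, and leaving out 1 array gave it values from -0.13 to 0.11 with R848 and from -0.20 to 0.03 with P3C. Npc2 with P3C ranged from -0.04 to 0.31. Probes near background, such as that of Ctsc, limit what small differences can be read.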
